A study of Danio rerio with 4 samples.

Results

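The genes described here encode the classical guidance cues of the nervous and vascular systems and their receptors, namely semaphorins, plexins, neuropilins, ephrins, Eph receptors, Slit and Robo proteins, netrins and Unc5 receptors. They were chosen by name, as every row of the deposited gene table whose symbol begins with one of these family names followed by its number or letter, which gave 67 of 18105 rows. One of them, unc50, matched the letters of the Unc5 rule, but the table names its product as protein unc-50 homolog, a Golgi membrane protein in other species and not a netrin receptor. Of these 67 rows, 36 had a mean normalized value of at least 10 over the 4 libraries and were tested, and the remaining 31 lay under that filter.

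Ventricular cardiomyocytes of the adult zebrafish (Danio rerio) heart were sorted by fluorescence and their RNA was sequenced. The first group, myl7:EGFP+, holds cells in which the cardiomyocyte promoter of myl7 drives a green reporter (7000 cells per sample). The second, tp1:EGFP+/myl7:DsRed2-NLS+ and here called tp1:EGFP+, holds cells that carry a red nuclear reporter driven by myl7 together with a green reporter driven by tp1, an element that responds to Notch signalling (2000 cells). Each group had 2 libraries. The labels name no selection against tp1 activity in the myl7:EGFP+ group, so the groups need not be complements of each other. The labels do not say whether the libraries of a group came from separate animals or pools of animals, so p-values measure the spread between these libraries, which may be technical. In such bulk samples, fewer cells that express a gene and less RNA per cell cannot be told apart. Cell input differed along with group, at 7000 cells in each myl7:EGFP+ library and 2000 in each tp1:EGFP+ library. An effect of input on which genes were detected therefore cannot be separated from a difference between the groups, and it was not tested.

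Guidance cues act at short range or by diffusion to repel or attract cells and growing processes. Semaphorins signal through plexins, which act on small GTPases, and the secreted semaphorins generally need a neuropilin as co-receptor. Ephrins are bound to the cell surface, the A type by a lipid anchor and the B type by a membrane-spanning segment, and bind Eph receptor tyrosine kinases on the neighbouring cell. Slit proteins are secreted and bind Robo receptors, and netrins bind DCC and Unc5 receptors. Outside the nervous system, members of these families are known for their parts in blood vessel patterning and in the shaping of the embryonic heart.

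The values are normalized read counts rounded to whole numbers. They summed to between 1552636 and 2130733 per library over all genes, and to between 2743 and 4947 over the 67 guidance rows. In the replicate 2 libraries 1 read was worth 3.11 (myl7:EGFP+) and 2.98 (tp1:EGFP+), which put their depth at about 685123 and 685085 reads, whereas in the replicate 1 libraries a read was worth less than 1. A replicate 2 value of 3 therefore stands for a single read. Values are given in the order of replicates 1 and 2, with myl7:EGFP+ before the word against and tp1:EGFP+ after it. Cardiomyocyte markers, of which 18 of 19 listed symbols were in the table on 19 rows, summed to 50340 and 90538 in myl7:EGFP+ and to 49517 and 87793 in tp1:EGFP+. The titin genes ttn.1 (14668 and 17087 against 12315 and 13852) and ttn.2 (18257 and 22692 against 18845 and 23416) weigh heavily in these sums. Some markers differed far more between replicates than between groups, such as myl7, at 565 and 4206 against 765 and 3916. Others did not, such as myom1b, at 1981 and 2005 against 624 and 650.

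The comparison asked which guidance genes differ between cardiomyocytes with Notch reporter activity and cardiomyocytes at large. Receptors and ligands went both ways, often within a family. The Eph receptor gene epha7, its ligand-family gene efna5a, the plexin genes plxnb1a and plxnb1b, the semaphorin genes sema4bb, sema6bb and sema6d, slit3 and robo3 were higher in tp1:EGFP+. The ephrin gene efna1b, the Eph receptor genes epha2a, epha3 and ephb3a and the plexin genes plxna2 and plxnb2a were lower. By limma with Benjamini-Hochberg adjustment over all tested genes, 15 of the 36 tested guidance genes (41.7%) passed the adjusted p threshold of 0.05 (called below), against 34.1% of all 9921 tested genes. The 9 higher genes were 25.0% of those tested, against 16.1% of all genes, and the 6 lower genes were 16.7%, against 18.0%. These shares are given as a description, since a gene seen in one group alone reaches the filter only when its value there is high. The median difference of log2(value + 1), tp1:EGFP+ minus myl7:EGFP+, was -0.08 over the 36 tested guidance genes and 0.01 over all tested genes. Without genes listed at 0 throughout a group, whose differences depend on the pseudocount of 1, it was 0.36 over 32 guidance genes and 0.03 over 9344 genes. The guidance genes left out in this way were 4 called lower and 0 called higher. The exclusion itself therefore raised their median, and 0.36 is no sign of a rise of the family.

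Of the 19 tested ligand genes, 5 were higher and 1 lower, and of the 16 tested receptor genes, 4 were higher and 5 lower. Over all tested genes 16.1% were higher and 18.0% lower. The same shares apply beside the counts of each family below, which rest on few genes and were not tested as sets. The groups did not overlap in 27 of the 36 tested guidance genes, or 75.0%, against 68.9% of all tested genes. The tp1:EGFP+ libraries were both above the myl7:EGFP+ libraries in 15 of them (41.7%, against 34.1% of all genes) and both below in 12 (33.3%, against 34.8%). In none of the 15 called genes did the groups overlap, so leaving out 1 library could not reverse their direction. For genes listed at 0 throughout tp1:EGFP+, leaving out a tp1:EGFP+ library could not change the difference at all. With any library left out, the 15 called genes kept at least 77.9% of their log2 difference. Their calls depended on having all libraries, however. Without 1 library, 1 group is left with a single sample that is assumed to vary like the others, and calls over all genes fell to between 401 and 627 (4.04% to 6.32%). Most calls of guidance genes were then lost, and epha2a alone kept its call whichever library was left out. This says little about how firm that call is. It is 1 of 4 called guidance genes listed at 0 in both tp1:EGFP+ libraries. Without a myl7:EGFP+ library, the only pair left for such a gene is tied at 0, so its spread is 0. With all 4 libraries, the tp1:EGFP+ pair of these genes is likewise tied at 0. Their own spread then comes from the myl7:EGFP+ pair alone, which can make their p-values too small.

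**Figure D1:**
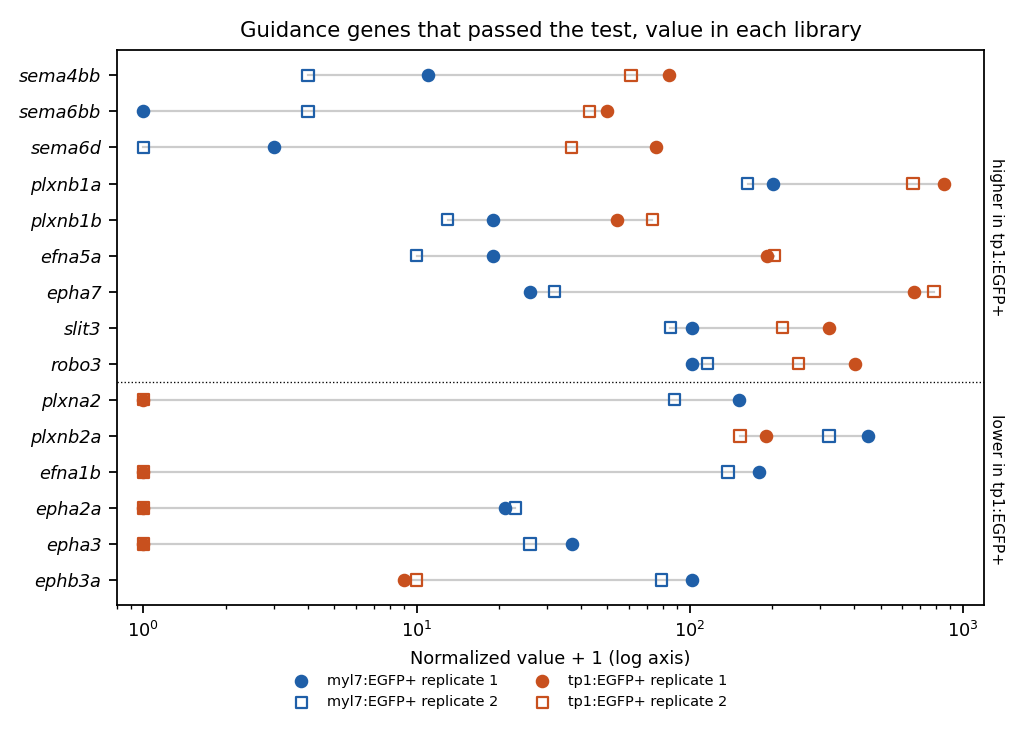
Normalized value + 1 on a log axis for the 15 guidance genes that passed the test, 1 point per library, with blue for myl7:EGFP+, orange for tp1:EGFP+, filled circles for replicate 1 and open squares for replicate 2. Genes above the dotted line were higher in tp1:EGFP+ and those below it lower. The tp1:EGFP+ points of plxna2, efna1b, epha2a and epha3 lie at a value of 0.

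Among the semaphorins, 3 of the 10 tested genes rose and none fell, whereas 7 did not pass. All 3 that rose belong to the classes of membrane-bound semaphorins, but so does every tested semaphorin except sema3gb. The gene sema4bb (chromosome 7, 30240791 to 30267169, GRCz11) encodes a transmembrane semaphorin and had values of 10 and 3 in the myl7:EGFP+ pair, against 83 and 60 in the tp1:EGFP+ pair. Both tp1:EGFP+ libraries were above both myl7:EGFP+ libraries, by a ratio of means of 11.0 and a log2 difference of 3.43 ± 0.65 (SE, n = 2 per group, limma adjusted p = 0.0170). Its paralog sema4ba had 48 and 16 against 151 and 89, also without overlap, and just missed the threshold (log2 2.02 ± 0.63, limma adjusted p = 0.0637).

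The class 6 semaphorins, which span the membrane and can act as receptors as well as ligands, differed among themselves. The gene sema6d (chromosome 19, 390298 to 417381), which the reference name table calls sema6ca, had 2 and 0 in the myl7:EGFP+ pair, against 74 and 36 in the tp1:EGFP+ pair. It was at or near 0 in one group, and its log2 difference was 4.93 ± 0.74 (limma adjusted p = 0.00888). The gene sema6bb (chromosome 8) had 0 and 3 against 49 and 42, with a log2 difference of 4.54 ± 0.77 (limma adjusted p = 0.0126). Their low group rests on very few reads. The value of 3 for sema6bb is a single read, and the tp1:EGFP+ replicate 2 values stand for about 12 reads of sema6d and 14 of sema6bb. In contrast, sema6dl, whose reference name is SEMA6D, had 23 and 37 against 11 and 9. Its groups did not overlap, but it did not pass (log2 -1.46 ± 0.49, limma adjusted p = 0.0793). The values of sema6e (reference name SEMA6C), 153 and 106 against 114 and 116, overlapped, and the interval of 1 SE around its log2 difference (-0.15 ± 0.29) includes 0. By the reference names, the sema6d that rose therefore goes with SEMA6C and not with SEMA6D. A transcript on the same strand, CR847566.1, overlaps sema6e, and how reads were shared between them is unknown.

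The thrombospondin-repeat semaphorin gene sema5a had 170 and 168 in the myl7:EGFP+ pair, against 353 and 253 in the tp1:EGFP+ pair. The groups did not overlap, but its log2 difference of 0.82 ± 0.27 did not pass (limma adjusted p = 0.0737). The remaining tested semaphorins were sema3gb, sema4c and sema7a, with log2 differences between -1.87 and 1.47 and limma adjusted p of 0.110, 0.836 and 0.141. Of the secreted class 3 semaphorins, sema3gb alone reached the filter, with 11 and 6 against 18 and 33, without overlap. The gene sema3ab was seen in myl7:EGFP+ alone, at 27 and 12, as was the membrane-bound sema4ab at 29 and 9, and both were listed at 0 throughout tp1:EGFP+. Both lay under the filter. The other class 3 genes in the table, sema3aa, sema3b, sema3bl, sema3d, sema3fa and sema3fb, and the class 5 gene sema5bb did not exceed 4 in any library. Without any library in turn, none of the 3 semaphorin calls held. Their log2 differences were then 2.70 to 4.16 for sema4bb, 3.54 to 5.54 for sema6bb and 4.13 to 5.72 for sema6d, with limma adjusted p of 0.0505 to 0.172 over the 3 genes.

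Plexins, the semaphorin receptors, included 2 genes that rose and 2 that fell among 5 tested. The gene plxnb1a (chromosome 23, 9938236 to 10137322) encodes a B-class plexin, a type known from mammals as a receptor for class 4 semaphorins. It had values of 201 and 162 in the myl7:EGFP+ pair, against 854 and 656 in the tp1:EGFP+ pair. The lowest tp1:EGFP+ value was well above the highest myl7:EGFP+ value, with a ratio of means of 4.16 and a log2 difference of 2.05 ± 0.28 (SE, n = 2 per group, limma adjusted p = 0.00709). Within replicate 1 the log2 difference was 2.08 and within replicate 2 it was 2.01, though the labels do not pair same-numbered libraries. Several other called genes were less even by this measure. Among them were sema4bb (2.93 and 3.93), sema6bb (5.64 and 3.43) and efna5a (3.34 and 4.35). Its paralog plxnb1b (chromosome 6) had 18 and 12 against 53 and 72. The ratio of its means was 4.17 and its log2 difference was 2.00 ± 0.45 (limma adjusted p = 0.0276). The call of plxnb1b was lost when each library was scaled to a common total.

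Another B-class gene went the other way. The gene plxnb2a (ENSDARG00000003811, chromosome 4, 14449233 to 14531687) had 450 and 323 in the myl7:EGFP+ pair, against 190 and 152 in the tp1:EGFP+ pair. All tp1:EGFP+ values were below all myl7:EGFP+ values, with a log2 difference of -1.16 ± 0.29 (limma adjusted p = 0.0356), and this call was lost with a common total, without the trend of variance with level and without the filter. The table holds 2 rows named plxnb2a. The other row (ENSDARG00000094799) overlaps the first on the same strand and had 11 and 3 against 1 and 0, so reads shared between them are uncertain.

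The gene plxna2 (chromosome 23, 32579495 to 33038423) encodes an A-class plexin, a partner of neuropilins in the reception of secreted semaphorins. It had 151 and 87 in the myl7:EGFP+ pair but was listed at 0 throughout tp1:EGFP+ (limma adjusted p = 0.00213). The related plxna1a had 35 and 28 against 16 and 9, which did not pass (log2 -1.31 ± 0.51, limma adjusted p = 0.109). The values of plxna4, plxnb2b and plxnb3 did not exceed 7, and plxnc1 was listed at 0 in all 4 libraries. With 1 library left out, plxnb1a, plxnb1b and plxnb2a lost their calls each time, at log2 differences of 1.86 to 2.24, 1.72 to 2.27 and -1.40 to -0.92. The call of plxna2 was lost without either tp1:EGFP+ library (limma adjusted p up to 0.0689).

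The 3 neuropilin genes, which encode co-receptors for secreted semaphorins and for vascular endothelial growth factor, did not pass. The values of nrp2b were 105 and 47 against 57 and 36, and those of nrp1a were 49 and 22 against 82 and 27, so that in both genes the groups overlapped. For nrp1b they were 15 and 16 against 10 and 3. The log2 differences were -0.62 ± 0.52, 0.51 ± 0.71 and -1.31 ± 0.63 in that order, with limma adjusted p of 0.408, 0.633 and 0.174. Such SEs leave room for a difference of 2-fold in either direction for nrp1a.

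**Figure D2:**
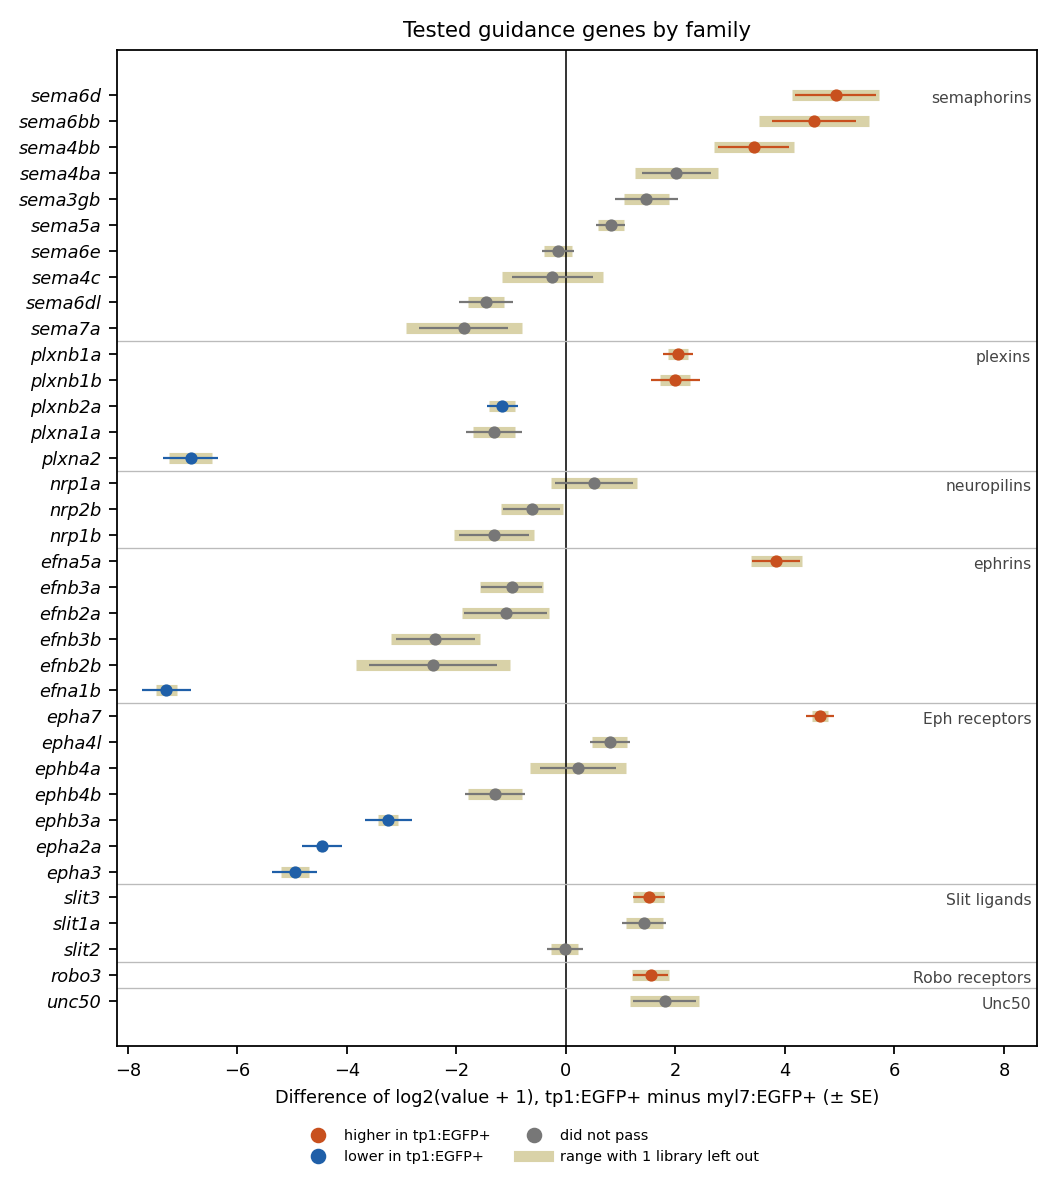
Difference of log2(value + 1), tp1:EGFP+ minus myl7:EGFP+, with its SE for the 36 tested guidance genes, grouped by family (orange higher, blue lower, grey did not pass). Pale bars give the range of the difference when each library was left out in turn. Eph receptors run from -4.96 for epha3 to 4.64 for epha7, and ephrins from -7.30 for efna1b to 3.84 for efna5a. The values of genes listed at 0 in one group depend on the pseudocount.

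The Eph receptors spanned a wide range, with 1 gene that rose and 3 that fell among 7 tested. The gene epha7 (chromosome 20, 24817118 to 24963092), which encodes a receptor for A-type ephrins, had values of 25 and 31 in the myl7:EGFP+ pair, against 660 and 784 in the tp1:EGFP+ pair. Its values were 28.0 ± 4.24 and 722 ± 87.7 (mean ± SD, n = 2), a ratio of means of 25.8. The log2 difference was 4.64 ± 0.26 (SE, limma adjusted p = 0.00213), with 4.67 within replicate 1 and 4.62 within replicate 2. In replicate 2 these values stand for about 10 reads against 263. The call was lost without tp1:EGFP+ replicate 2, with a limma adjusted p of 0.0597, and held without each other library.

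In the opposite direction, epha3 (chromosome 9) had 36 and 25 in myl7:EGFP+ and epha2a (chromosome 6) had 20 and 22, and both were listed at 0 throughout tp1:EGFP+ (limma adjusted p = 0.00213 for each). Both encode receptors for A-type ephrins, and epha3 is known in mammals for a part in the atrioventricular endocardial cushions. The myl7:EGFP+ replicate 2 values stand for about 8 reads of epha3 and 7 of epha2a. The call of epha3 was lost without either tp1:EGFP+ library (limma adjusted p up to 0.0610). Among the B receptors, ephb3a (chromosome 2, 7923964 to 8017579) fell from 101 and 78 to 8 and 9. Its groups were 10.5 times apart in their means, with a log2 difference of -3.24 ± 0.42 (limma adjusted p = 0.00611), and the call was lost whichever library was left out (log2 -3.43 to -3.06).

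The vein-associated receptor gene ephb4a had 87 and 44 in the myl7:EGFP+ pair, against 133 and 39 in the tp1:EGFP+ pair. The groups overlapped and the replicates differed more within a group than between groups (log2 0.22 ± 0.70, limma adjusted p = 0.848). Its paralog ephb4b had 25 and 12 against 7 and 6, which did not pass (log2 -1.30 ± 0.54, limma adjusted p = 0.130). The values of epha4l, annotated as Eph receptor A4-like, were 56 and 47 against 113 and 72 (log2 0.80 ± 0.36, limma adjusted p = 0.150). The receptors epha2b, epha4a and epha4b did not exceed 10 in any library, and ephb2b was listed at 0 in all 4.

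Of the 6 tested ephrin genes, 1 rose, 1 fell and 4 did not pass. The lipid-anchored ligand gene efna5a (chromosome 21, 20488662 to 20636817) had values of 18 and 9 in the myl7:EGFP+ pair, against 191 and 203 in the tp1:EGFP+ pair. The tp1:EGFP+ libraries differed little from each other, and the means stood at a ratio of 14.6 (log2 3.84 ± 0.44 SE, n = 2 per group, limma adjusted p = 0.00431). Ephrin-A5 is known from other vertebrates as a ligand of the receptor encoded by EPHA7. Without any 1 library the log2 difference of efna5a was 3.38 to 4.31, and its limma adjusted p was 0.0529 to 0.115.

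The other A-type ligand gene tested, efna1b (chromosome 16, 23282655 to 23298149), had 178 and 137 in the myl7:EGFP+ pair but was listed at 0 throughout tp1:EGFP+ (limma adjusted p = 0.00213). The value in myl7:EGFP+ replicate 2 stands for about 44 reads. Its call was lost without tp1:EGFP+ replicate 2 (limma adjusted p = 0.0550). Its paralog efna1a, under the filter, had 21 and 16 and was likewise listed at 0 throughout tp1:EGFP+. The values of efna2a, efna2b, efna3b and efnb1 did not exceed 6.

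All 4 tested B-type ephrin genes had negative log2 differences, and none passed. The median difference over all tested genes was 0.01, so negative signs were common. The values of efnb3a were 167 and 75 against 80 and 39, which overlapped (log2 -0.99 ± 0.56, limma adjusted p = 0.233). Those of efnb3b were 70 and 22 against 5 and 9, without overlap (log2 -2.38 ± 0.72, limma adjusted p = 0.0599). The groups of efnb2a, known from arterial endothelium, also overlapped, at 21 and 9 against 11 and 3. Those of efnb2b met, at 28 and 6 against 6 and 0. The SEs of efnb2a and efnb2b were 0.76 and 1.18. Replicate 1 was above replicate 2 in both groups for each gene of this type except efnb3b.

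**Figure D3:**
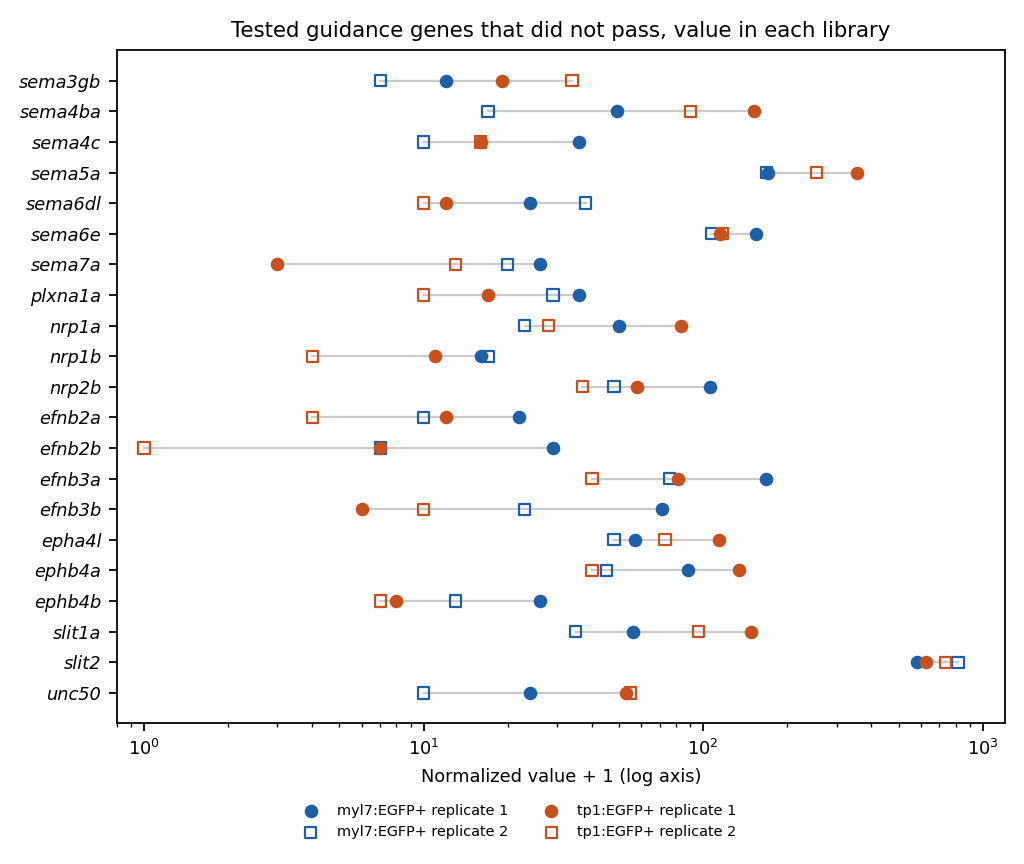
Normalized value + 1 on a log axis for the 21 tested guidance genes that did not pass, 1 point per library, with blue for myl7:EGFP+, orange for tp1:EGFP+, filled circles for replicate 1 and open squares for replicate 2. The points of slit2 and sema6e lie close together, whereas those of efnb2b and ephb4a spread as widely within a group as between groups.

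Among the 3 tested Slit ligand genes and the 1 tested Robo receptor gene, none was called lower, which says little for so few genes. The gene slit3 (chromosome 14, 24491818 to 24761161) encodes a secreted ligand with leucine-rich repeats and had values of 101 and 84 in the myl7:EGFP+ pair, against 323 and 218 in the tp1:EGFP+ pair. Both tp1:EGFP+ values were above both myl7:EGFP+ values, with a ratio of means of 2.92 and a log2 difference of 1.52 ± 0.30 (SE, n = 2 per group, limma adjusted p = 0.0189). Its call was lost with a common total. The microRNA gene dre-mir-218a-1, which lies within slit3 on the same strand, had 2, 0, 0 and 0 in the 4 libraries.

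The related slit1a had 55 and 34 against 147 and 95, again without overlap, and lay at the edge of the threshold (log2 1.43 ± 0.41, limma adjusted p = 0.0509). By contrast slit2 had 580 and 815 against 624 and 736. The tp1:EGFP+ values fell inside the myl7:EGFP+ range, and the log2 difference was -0.02 ± 0.33 (limma adjusted p = 0.971), which leaves room for a modest change in either direction.

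Of the Robo receptors, robo3 (chromosome 10, 31298972 to 31563049) reached the filter and rose, from 101 and 115 to 402 and 250. The groups did not overlap. The ratio of its means was 3.02 and its log2 difference was 1.55 ± 0.32 (limma adjusted p = 0.0208). It was 1.98 within replicate 1 and 1.11 within replicate 2. Without 1 library at a time, both slit3 and robo3 lost their calls, at log2 differences of 1.23 to 1.80 and 1.21 to 1.89. The gene robo2, under the filter, was at 0 throughout myl7:EGFP+ but had 17 and 15 in tp1:EGFP+, the latter standing for about 5 reads. The values of robo1 were 3 and 3 against 0 and 0, and it was called lower when the filter was dropped. Those of robo4, known from endothelium, were 2, 0, 0 and 0.

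No netrin or Unc5 receptor gene reached the filter. The netrin genes ntn1a and ntn1b had 9 and 3 against 9 and 15, and 6 and 16 against 3 and 3, and ntn2 did not exceed 2. The receptor gene unc5c had 22 and 16 in the myl7:EGFP+ pair but was listed at 0 throughout tp1:EGFP+. It shares its locus with bmpr1bb on the opposite strand (0 and 0 against 12 and 3), and whether counting used strand is unknown. The gene unc5a did not exceed 3. The Golgi gene unc50, which is a member by its name alone, had 23 and 9 against 52 and 54, which did not pass (log2 1.80 ± 0.57, limma adjusted p = 0.0678).

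Among the 31 rows under the filter, values reached at most 29 and 3 rows were listed at 0 in all libraries. Over all 67 rows, 12 were above 0 in both myl7:EGFP+ libraries and listed at 0 throughout tp1:EGFP+, and 1, robo2, was the reverse. These were 17.9% and 1.49% of the guidance rows, against 8.89% and 4.34% of all 18105 rows. Among tested genes, 4 guidance genes (11.1%) were called lower with 0 in both tp1:EGFP+ libraries, against 3.44% of all tested genes, and 0 were called higher with 0 in both myl7:EGFP+ libraries, against 2.35%. Of the 67 rows, 59 and 51 were above 0 in the myl7:EGFP+ pair, against 44 and 37 in the tp1:EGFP+ pair. Over the whole table the numbers of genes above 0 were 14281 and 12417 in the myl7:EGFP+ pair, against 12558 and 11516 in the tp1:EGFP+ pair. The tp1:EGFP+ libraries were also made from fewer cells, and the part of cell input in the genes listed at 0 there was not tested. With all rows above 0 in some library tested, the rows under the filter added 1 higher call, robo2, and 6 lower calls, namely efna1a, robo1, sema3ab, sema3d, sema4ab and unc5c, while plxnb2a was lost. That gave 10 higher and 11 lower of 64 guidance rows, against 1777 higher and 2434 lower of all 16374 genes (25.7% called in either direction). Among the added calls, robo1 and sema3d rest on values of at most 4.

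Teleost fish keep many genes in paralogous a and b copies. The 67 rows held 14 such pairs, of which 6 had both copies tested. In the plxnb1 pair both copies rose, by log2 differences that lay within 1 SE of each other (2.05 ± 0.28 and 2.00 ± 0.45). In the sema4b pair both log2 differences were positive and 1 passed. In the ephb4, nrp1, efnb2 and efnb3 pairs neither copy passed. In the efna1 pair both copies were listed at 0 in tp1:EGFP+, and in the epha2 pair epha2a was, whereas epha2b had 0 and 6 against 0 and 6. In the plxnb2 pair plxnb2a fell, whereas plxnb2b had 0 and 0 against 7 and 0 and lay under the filter. Differences between copies were not tested.

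**Figure D4:**
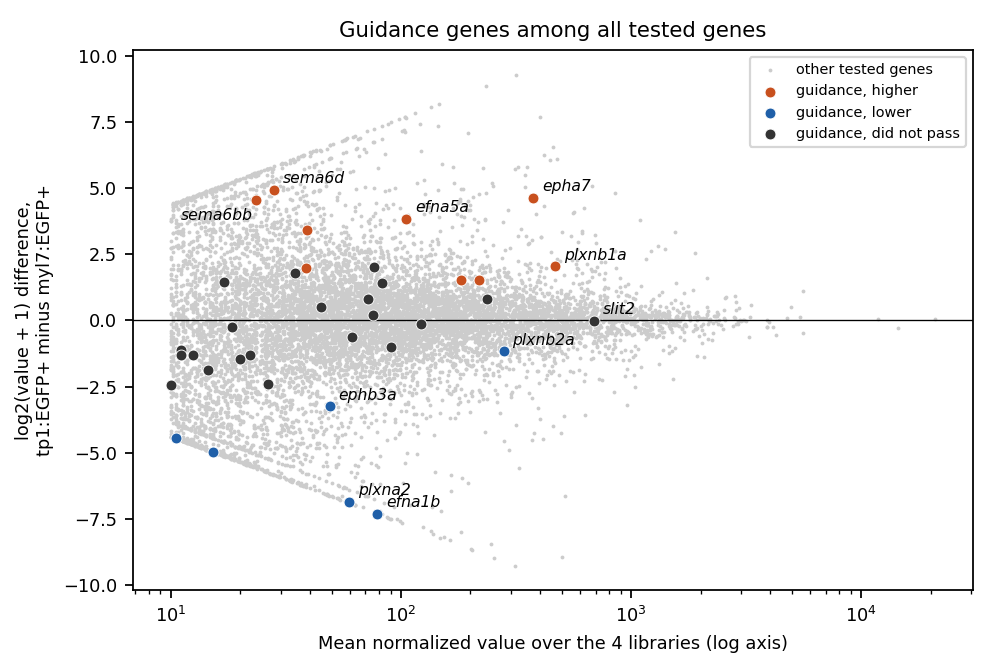
Difference of log2(value + 1), tp1:EGFP+ minus myl7:EGFP+, against the mean normalized value over the 4 libraries (log axis) for all 9921 tested genes in grey and the 36 tested guidance genes in colour. The guidance genes lie within the cloud of all genes, and plxna2 and efna1b lie on its lower edge, where genes with 0 in both tp1:EGFP+ libraries fall.

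Partners and cytoplasmic effectors of these receptors, taken from a list of 110 genes without the family members themselves, also went both ways. Of its 67 rows that were tested, 15 rose (22.4%) and 16 fell (23.9%), against 16.1% and 18.0% of all tested genes. The 4 rises with the smallest p were limk2, rnd3b, dpysl2b and rac1a. The gene limk2, which encodes a kinase that phosphorylates cofilin, rose from 30 and 47 to 1228 and 1383 (log2 5.08 ± 0.30, limma adjusted p = 0.00213). The gene rnd3b, for a small GTPase, rose from 51 and 37 to 651 and 808 (log2 4.03 ± 0.28, limma adjusted p = 0.00213). The gene dpysl2b, whose mammalian counterpart CRMP2 acts in semaphorin signalling, had 1 and 0 against 274 and 209. The small GTPase gene rac1a rose from 56 and 65 to 321 and 331.

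The 4 falls with the smallest p were tiam1a, srgap2, rnd2 and kdr. The Rac exchange factor gene tiam1a had 63 and 53 in myl7:EGFP+, the Slit-Robo GTPase-activating gene srgap2 had 38 and 40, and the GTPase gene rnd2 had 57 and 31, and all 3 were listed at 0 throughout tp1:EGFP+ (limma adjusted p = 0.00213, 0.00213 and 0.00228). The growth factor receptor gene kdr had 44 and 37 against 1 and 0, and it is also an endothelial marker. Of 50 further genes that the table annotates with axon guidance, 21 were tested, of which 10 rose (47.6%, against 16.1% of all tested genes) and 2 fell (9.52%, against 18.0%). Some rises reached the filter only through tp1:EGFP+, as tnr and cxcl12b were at 0 throughout myl7:EGFP+, and dpysl2b, kif26aa and ptprfa did not exceed 2 there. Over all 50 genes, more were listed at 0 in tp1:EGFP+ alone than in myl7:EGFP+ alone. These shares are therefore a description only. Of the 22 guidance members with the same annotation, 10 were tested, of which 3 rose and 0 fell. This annotation was looked up after the values were seen, and it includes dpysl2b. The 2 that fell were cxcr4b, at 27 and 31 against 2 and 3, and vegfaa, a growth factor that binds neuropilins, at 641 and 951 against 32 and 36 (log2 -4.48 ± 0.29, limma adjusted p = 0.00213).

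Several guidance genes are also expressed by cell types other than cardiomyocytes, among them efnb2a, ephb4a, nrp1b and robo4 in endothelium. Markers of such cells differed between the groups. The endothelial and endocardial list, with 24 of 27 genes in the table, summed to 1039 and 649 in myl7:EGFP+ and to 252 and 186 in tp1:EGFP+. Of its 16 tested genes 10 fell and 2 rose, and tie1, tek, fli1a, fli1b, erg, esama, plvapb and lyve1b were listed at 0 throughout tp1:EGFP+. The 2 that rose, pecam1 (19 and 30 in tp1:EGFP+) and cldn5b (29 and 27), were at 0 throughout myl7:EGFP+. The mural and smooth muscle list, with 13 of 14 genes, summed to 654 and 1199 against 2542 and 4600, and 7 of its 8 tested genes rose. Its genes myh11a, pdgfrb, rgs5a and mylka were listed at 0 throughout myl7:EGFP+, and desmb and foxc1b throughout tp1:EGFP+. The tested gene that did not rise, rgs5b, had 438 and 1032 against 353 and 545 and weighs heavily in the myl7:EGFP+ sums. The erythroid list summed to 54 and 47 against 253 and 474, with 6 of 8 tested genes higher, and hbba2, hbaa2 and 1 of the 2 rows named hbba1 listed at 0 throughout myl7:EGFP+. The part of these cell types in the guidance results was not tested.

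The neural and Schwann cell list, relevant because guidance genes also act in the nervous system, summed to 40 and 40 against 43 and 48. Of its 2 tested genes snap25b rose, from 2 and 6 to 21 and 33, and syt1a, at 28 and 31 in myl7:EGFP+, fell to 0 and 0. Under the filter, plp1b, stmn2a, mpz and syt1b were at 0 in the tp1:EGFP+ group alone, sox10 (22 and 9 in tp1:EGFP+), mbpa and tubb5 in the myl7:EGFP+ group alone, and gap43 in all libraries. The epicardial and fibroblast list summed to 570 and 555 against 577 and 512, with 5 of its 9 tested genes higher and 1, clu, lower. Without clu, which had 414 and 395 against 53 and 48, the list summed to 156 and 160 against 524 and 464. These sums were added after the values were seen, and clu was the 1 gene called lower. Leaving it out was bound to raise tp1:EGFP+ relative to myl7:EGFP+, so the sums are a description only. The gene krt4, at 1 and 0 against 232 and 179, weighs heavily in the tp1:EGFP+ sums. An uncalled gene, col1a2, was lower in tp1:EGFP+ (65 and 87 against 22 and 42). At 0 in the tp1:EGFP+ group alone were wt1b and lum, and in the myl7:EGFP+ group alone fn1b, col12a1a and postnb. The leukocyte and thrombocyte list summed to 88 and 89 against 156 and 212, with 2 of 5 tested genes higher and 3 lower, and ptprc, coro1a and mpeg1.1 listed at 0 in all libraries. Of the 19 cardiomyocyte rows, 0 rose and 3 fell. The part of these lists in the guidance results was likewise not tested.

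**Figure D5:**
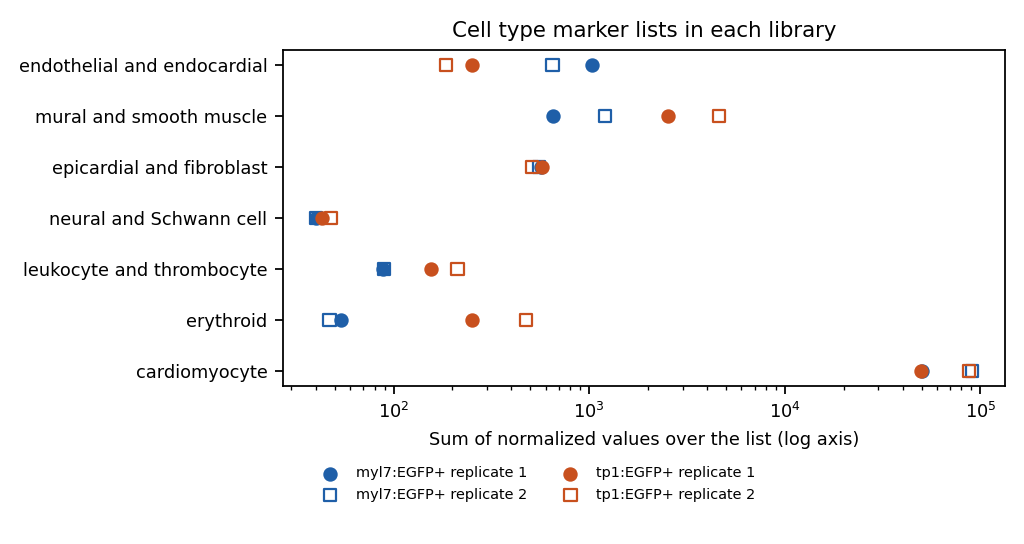
Sum of the normalized values over each cell type marker list on a log axis, 1 point per library, with blue for myl7:EGFP+, orange for tp1:EGFP+, filled circles for replicate 1 and open squares for replicate 2. The endothelial sums lie between 186 and 252 in tp1:EGFP+ against 649 and 1039 in myl7:EGFP+, the mural and erythroid sums lie higher in tp1:EGFP+, and the cardiomyocyte sums pair by replicate number.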

How the data were processed

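Each library has 1 column of a deposited score, which the authors made by normalizing read counts between libraries and rounding them to whole numbers, for 18105 Ensembl genes. These values differ from raw counts, and single reads cannot be recovered in the replicate 1 libraries, so no count model was fitted. The submitters' processing notes name GRCz11, DESeq2 1.26.0, Subread 1.6.5 with featureCounts, STAR 2.6.1d and Trimmomatic 0.39, in no stated order. Their settings, including how strand was treated, are not given in the sources. Coordinates are those of the deposited table.

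Values were tested with limma 3.58.1 (R 4.3.3, trend option, two-sided) on log2(value + 1) over the 9921 genes with a mean of at least 10, with Benjamini-Hochberg adjustment over all of them, and the threshold was 0.05. This scale understates the change of low genes. The fit and the estimate of the value of 1 read were tested on simulated data. For the fit, these data held independent normal noise on the log2 scale. They had no ties at 0, no steps of single reads and no deviations shared by same-numbered libraries, so they did not test the fit under those conditions. Tables and plots used Python 3.11.15, pandas 2.3.3, numpy 2.4.6 and matplotlib 3.10.9. Values were not compared between genes, because transcript lengths were not used.

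The members, gene lists and tests were chosen with earlier results of these data known. Genes named were every called member, every tested uncalled member with a mean of at least 50, others by class, and up to 4 called effectors per direction with the smallest p. All 67 members matched the reference name table by Ensembl ID. A planned search of promoters for a motif was not run, and promoter and protein sequences were not used here. Alternatives were a minimum mean of 50 or no filter, pseudocounts of 0.5 and 10, quantile and common-total scaling, no trend, a replicate block, and each library left out.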

Additional observations from a re-analysis of the deposited data

How the results depend on the processing

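All 15 called guidance genes kept their sign under the alternatives in which they were fitted. As their groups did not overlap, only quantile and common-total scaling could have changed a sign. Of the 15, 12 kept their call in every setting that used all 4 libraries and in which they were fitted. A mean of at least 50 left 8 of the 15 in the fit. The exceptions were plxnb1b and slit3 with a common total, and plxnb2a with a common total, without trend and without the filter. Counts that moved by over 1.5 times were as follows. A mean of at least 50 left 709 higher and 634 lower genes of 5614, and 5 higher and 3 lower guidance genes of 17. No filter gave 11 lower guidance genes. With the replicate block, 2845 genes were higher and 2876 lower, or 57.7% of all tested genes. Of the 36 tested guidance genes, 14 were then higher and 11 lower. The added higher calls were sema4ba, slit1a and sema5a (limma adjusted p = 0.000455, 0.0009 and 0.00297 with the block), epha4l and unc50. The added lower calls were sema6dl, sema7a and the B-type ephrin genes efnb2b, efnb3a and efnb3b. These 3 ephrin genes did not pass otherwise (limma adjusted p = 0.00725, 0.00524 and 0.0122 with the block). The labels do not state that a shared replicate number marks a shared animal or batch, and there are 2 pairs. Deviations of same-numbered libraries correlated across genes (r = 0.442). The fit without a block counts this shared part as spread within the groups. Genes that did not pass in that fit can therefore pass with the block. The block uses the same 4 libraries, so it is not a separate check. Leaving out each library in turn gave 69 to 271 higher and 137 to 365 lower genes, and 0 to 1 higher and 1 to 4 lower guidance genes. Scalings moved the median difference of all genes by at most 0.02 in size. Depth limits the low members: in the replicate 2 libraries 1 read is worth about 3, so values under about 10 rest on at most 3 reads.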
